A study of Homo sapiens with 4 samples.

Results

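H3K27ac HiChIP signal was described for 6 chromosome arms that are commonly gained (8q, 13q, 20q) or lost (8p, 17p, 18q) in colorectal cancer, in 4 colorectal cancer cell lines. The 6 arms were taken by hg19 coordinates of the anchor midpoint: 8p below 43 Mb, 8q above 46 Mb, all of 13q, 17p below 22 Mb, 18q above 17 Mb and 20q above 28 Mb. The rule used coordinates only. Anchors are the stretches of DNA between which, or within which, contacts were counted. The arms held 2489 of 23933 autosomal anchors in SW620, 1023 of 9142 in SW480, 2335 of 21450 in HCT116 and 2364 of 21642 in LS513.

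As background, 8q carries the growth regulator gene MYC, 13q the intestinal transcription factor genes CDX2 and KLF5, and 20q the mitotic kinase gene AURKA, while 18q carries the TGF-beta signalling genes SMAD2 and SMAD4. H3K27ac, acetylation of lysine 27 on histone H3, marks active promoters and enhancers. HiChIP for this mark ligates DNA segments that lie close together in fixed nuclei and enriches those that carry it, so that each sequenced pair of ends, a paired-end tag or PET, records a pair of contacting pieces of chromatin. A PET with both ends in the same anchor, a same-anchor PET, reports how much material that anchor gave. A gained or lost arm gives more or fewer such PETs in all its anchors at once, and so does a rise or fall of acetylation along the arm. Without input DNA or a copy number measurement used here, copies of an arm and acetylation per copy cannot be told apart.

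The series held H3K27ac HiChIP of 4 untreated colorectal cancer cell lines bought from ATCC, with 1 library per line. SW620 is labelled a Dukes' type C colorectal adenocarcinoma and SW480 a Dukes' type B colorectal adenocarcinoma, and both are known to derive from the same patient. HCT116 is labelled a colorectal carcinoma and LS513 a Dukes' type C colorectal carcinoma. Each line is a culture from 1 tumour, and no replicate was given. The differences below therefore have neither a replicate check nor a p-value. Intervals are exact 95% intervals that cover counting error only, and not variation between libraries. They take each PET as an independent count, although PETs carry no molecular identifiers. No expression value or hg19 gene annotation was used, so the cell type was not checked against markers and no gene was assigned to an anchor. Autosomal same-anchor PETs numbered 828976 in SW620, 128642 in SW480, 854579 in HCT116 and 1373945 in LS513. Density over all autosomes was 5.28 PETs per kb of anchor in SW620, 2.0 in SW480, 6.83 in HCT116 and 10.9 in LS513. SW480 thus gave the least precise values. The anchors listed for HCT116 and LS513 were nearly the same set: 99.5% of the autosomal anchors of HCT116 overlapped one of LS513. Only 27.5% of those of SW620 overlapped one of SW480. Anchors with the same start and end in both lines numbered 21338 for HCT116 and LS513 and 509 for SW620 and SW480. The source of the anchors was not given, so these figures do not measure how alike the lines are.

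Summed, the arms held close to a constant part of the autosomal PETs, 11% in SW620, 11% in SW480, 10.8% in HCT116 and 11.5% in LS513. The differences lay within the set. By share, each line had a different arm profile: 13q was high in LS513, 8q in HCT116, and 20q in both SW620 and SW480. Arm 18q was low in SW620. Density is given below relative to the autosomes of the same line, so that 1 is the autosomal value. An arm or a 5 Mb window is called higher where its fold was more than 25% above 1 and lower where it was under 0.8, the same ratio the other way. The other 33 autosomal arms ranged from 0.737 to 1.495 in SW620, from 0.573 to 2.31 in SW480, from 0.627 to 1.53 in HCT116 and from 0.666 to 1.51 in LS513.

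**Figure D1:**
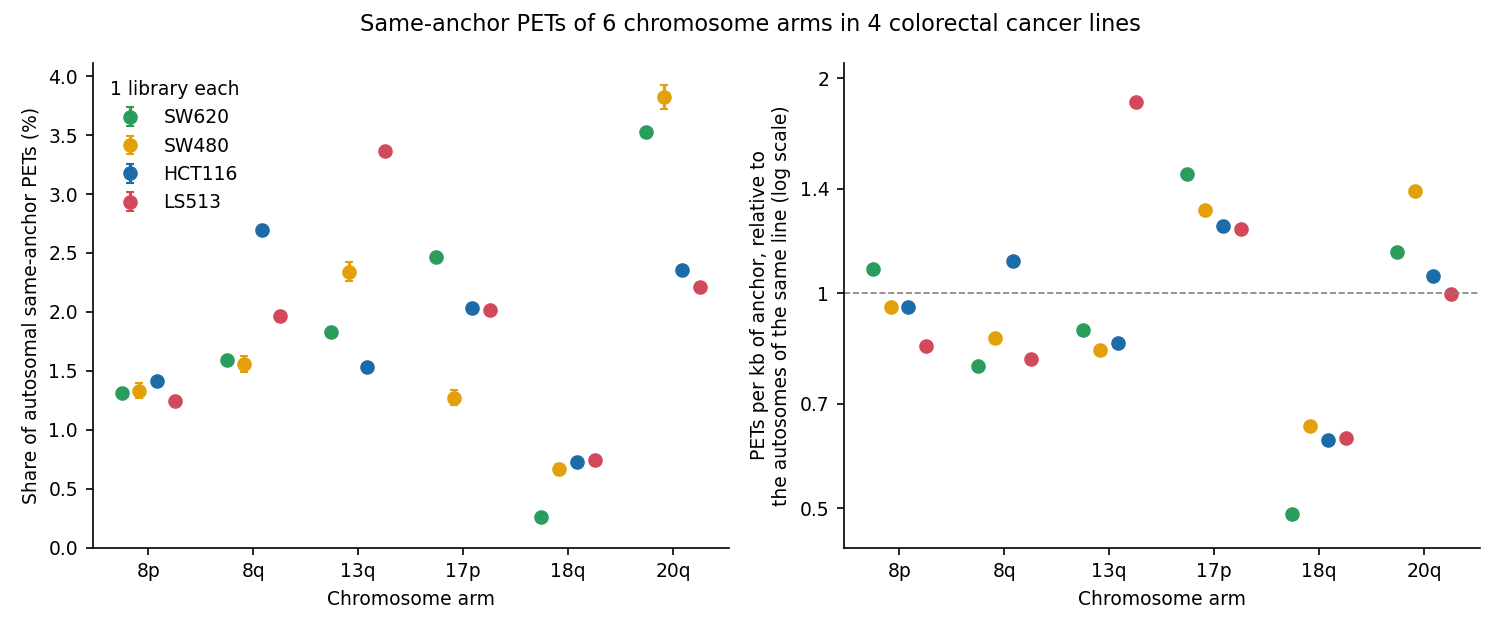
Left: share of autosomal same-anchor PETs (%) in each of the 6 arms for the 4 lines, 1 library each, with 95% exact binomial intervals (mostly hidden by the points). Right: PETs per kb of anchor relative to the autosomes of the same line, on a log scale, where the dashed line marks 1. LS513 stands at 3.37% and 1.85 on 13q, and SW620 at 0.259% and 0.490 on 18q.

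Of the commonly gained arms, 13q differed most between HCT116 and LS513. It held 1.83% of autosomal same-anchor PETs in SW620 (interval 1.80 to 1.86), 2.34% in SW480 (2.26 to 2.42), 1.53% in HCT116 (1.51 to 1.56) and 3.37% in LS513 (3.34 to 3.40). LS513 was highest and no interval overlapped another. The relative density was 0.887 in SW620, 0.833 in SW480, 0.852 in HCT116 and 1.85 in LS513. In LS513 this was the densest of the 39 autosomal arms, whereas in the other 3 lines 13q ranked 25th to 34th. The LS513 value was 2.17 times the median of the other 3, and 15.4% of all arms in that line were called higher by this measure.

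HCT116 and LS513 were compared at 21338 identical anchors, each line's PETs taken as a rate per PET in all of them. On 13q, HCT116 held 13089 PETs and LS513 held 46235, a fold of 0.455 (interval 0.446 to 0.464), the lowest of the 39 arms. Of the 6 arms only 13q was called lower in HCT116, as were 17.9% of all arms. The shift ran through the arm rather than through a few anchors. Of 317 anchors with at least 20 PETs over both lines, 190 (59.9%) were more than 1.5-fold lower in HCT116 and 19 (5.99%) more than 1.5-fold higher, against 18.2% and 33.5% of all 15322 such autosomal anchors. All anchors together were shifted towards HCT116, with a median fold of 1.15. Relative to that median, the median 13q anchor stood at 0.499. All 17 windows of 5 Mb with at least 50 PETs were called lower in HCT116, against 19.8% of 541 autosomal windows. The window folds ran from 0.224 at 80 to 85 Mb (210 PETs in HCT116, 1510 in LS513) to 0.787 at 95 to 100 Mb (1202 PETs in HCT116 and 2454 in LS513).

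Pairs of different anchors gave the same order of these lines. Loops on 13q, that is PETs between anchors 5 kb to 2 Mb apart, were 1.20% of autosomal loop PETs in HCT116 and 2.62% in LS513. PETs joining 13q to another chromosome took 1.87% of interchromosomal PET ends in HCT116 and 3.75% in LS513. The strongest anchor of the arm in LS513 lay at chr13:111153076-111165630, with 191 PETs in HCT116 and 1907 in LS513, while SW620 had 402 there and SW480 no anchor. At the anchor that led in HCT116, chr13:73661646-73666795, the counts were 257 PETs in HCT116 and 447 in LS513. The highest single 13q anchor by fold was chr13:48610202-48615440 (44 PETs in HCT116, 27 in LS513, fold 2.62, interval 1.59 to 4.40). The lowest was chr13:52337211-52340477 (6 PETs in HCT116, 82 in LS513, fold 0.118, interval 0.0420 to 0.267).

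At groups of overlapping anchors, a comparison added after the data were seen, both other lines also stood below LS513 on 13q. SW620 held 11761 PETs there and LS513 38140, a fold of 0.530 (interval 0.519 to 0.541). SW480 held 1990 and LS513 20059, a fold of 0.601 (0.573 to 0.629). The comparisons share LS513. Past 1.5-fold lower were 132 of 190 anchor groups of 13q in SW620, where 32.8% of all groups were, and 55 of 100 in SW480, where 34.3% were. Called lower were 20.5% of all arms in SW620 against LS513 and 25.6% in SW480 against LS513. Over the 109 groups of 13q anchors that all 4 lines held, the relative density was 0.889 in SW620, 0.901 in SW480, 0.882 in HCT116 and 1.91 in LS513. LS513 alone stood above 1 there.

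Between SW620 and SW480, 13q changed along its length. The arm as a whole held 9244 PETs in SW620 and 2562 in SW480 at shared anchors, a fold of 0.938 (interval 0.897 to 0.980), inside the call limits. The 6 windows from 20 to 50 Mb had folds of 0.335 to 0.553, while the 4 windows from 95 to 115 Mb had folds of 1.42 to 2.71, stretches picked after their values were seen. In the highest, at 110 to 115 Mb, SW620 held 3394 PETs and SW480 326. In the lowest, at 35 to 40 Mb, SW620 held 49 and SW480 38. The last 10 Mb before the telomere stood at 2.43 (2.20 to 2.68) and the rest of the arm at 0.618 (0.587 to 0.651). The ends of autosomes as a group also stood higher in this pair, with a fold of 1.26 against 0.929 for the rest, and the part of this in the 13q pattern was not tested. Counted by loops, 13q held 1.62% in SW620 and 3.07% in SW480, a fold of 0.527. Under 13 other settings, loops included, the fold of the whole arm ran from 0.527 to 1.12. It was called in 4 of them and stood above 1 in 2.

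**Figure D2:**
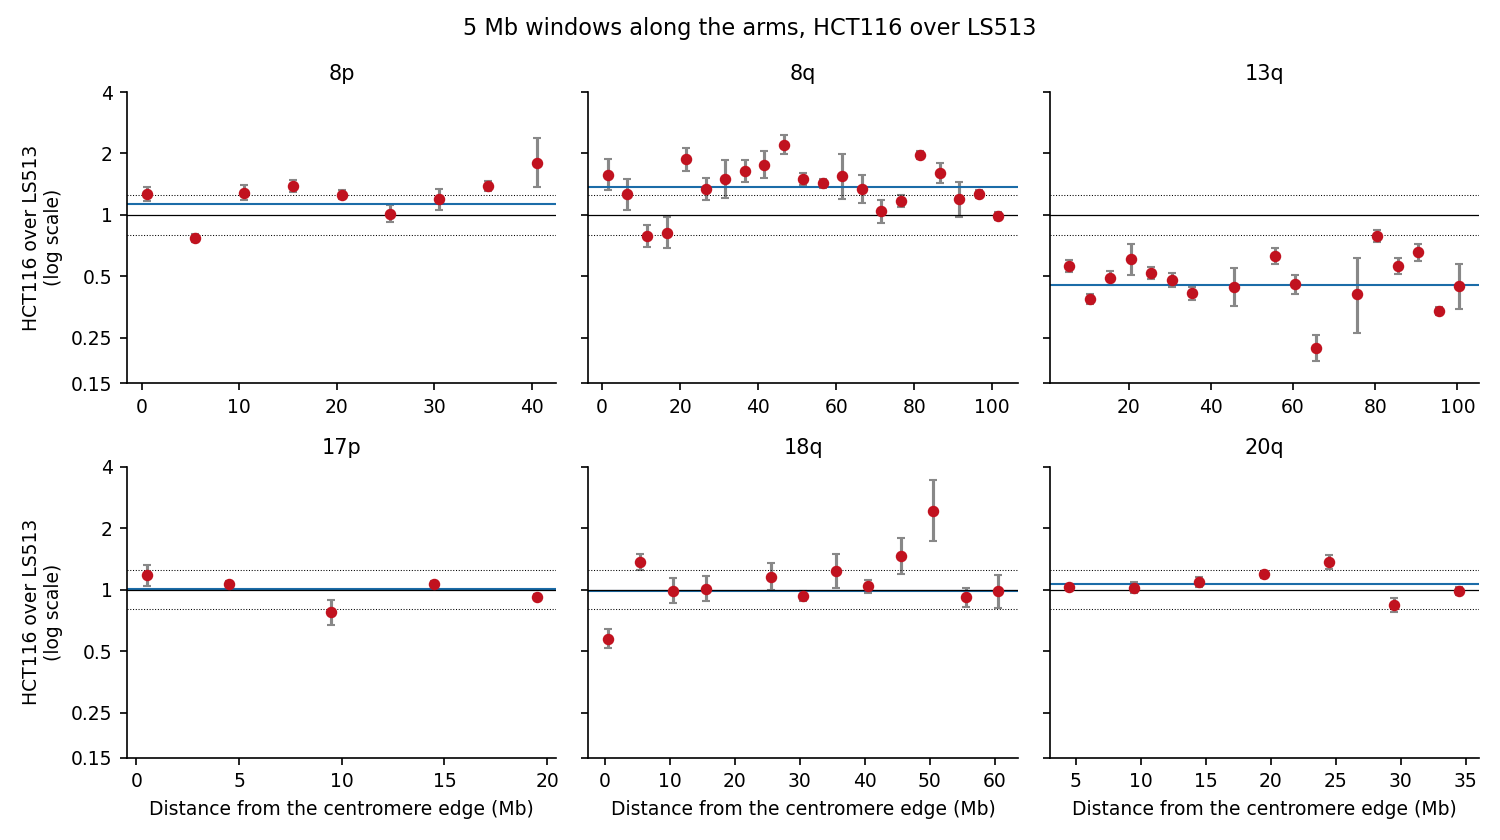
HCT116 over LS513 fold of PET rates (log scale) in 5 Mb windows with at least 50 PETs, by distance in Mb from the centromeric edge of each arm. Error bars are 95% exact intervals, the blue line is the fold of the whole arm and dotted lines mark the call limits, 0.8 and 25% above 1. All 17 windows of 13q lie below the lower dotted line, and 15 of 21 windows of 8q above the upper one.

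Arm 8q was highest in HCT116. Its share was 1.60% in SW620 (interval 1.57 to 1.62), 1.56% in SW480 (1.49 to 1.63), 2.69% in HCT116 (2.66 to 2.73) and 1.96% in LS513 (1.94 to 1.99). The intervals of SW620 and SW480 overlapped, and HCT116 stood apart from all others. The relative density was 0.790 in SW620, 0.866 in SW480, 1.11 in HCT116 and 0.808 in LS513, so that only in HCT116 was 8q denser than the autosomes. That value was 1.37 times the median of the other 3 lines, and 5.13% of all arms in HCT116 were called higher by this measure.

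At identical anchors 8q held 23028 PETs in HCT116 and 26980 in LS513, a fold of 1.37 (interval 1.35 to 1.4) and rank 3 of 39. Of the 6 arms only 8q was called higher in HCT116, as were 7.69% of all arms. Scaled by the median anchor instead of the total, the fold was 1.19 and the call ended. Of 369 anchors with at least 20 PETs, 200 (54.2%) were more than 1.5-fold higher in HCT116 and 33 (8.94%) lower. The background shares are those given for 13q, and by the median anchor fold, centred on all autosomal anchors, 8q stood at 1.39. Along the arm, 15 of 21 windows were called higher, against 23.3% of all windows, and 1 was lower. The highest was 90 to 95 Mb, with 839 PETs in HCT116 and 612 in LS513 (fold 2.20, interval 1.98 to 2.45). The lowest was 55 to 60 Mb, with 389 PETs in HCT116 and 790 in LS513 (0.792, 0.699 to 0.895). The last 10 Mb of the arm stood at 1.13 and the rest at 1.51.

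The leading 8q anchor differed between lines. In HCT116 it was chr8:128250011-128291317, 41.3 kb long, with 556 PETs in HCT116 and 269 in LS513 and no overlapping anchor in SW620 or SW480. In SW480 it was chr8:128037170-128058092, with 195 PETs in SW480, 35 in HCT116 and 22 in LS513, and no overlapping anchor in SW620. Per 100000 autosomal PETs these were 152 in SW480, 4.10 in HCT116 and 1.60 in LS513. In SW620 and LS513 the leading anchor was at chr8:101961484-101967128, with 560 PETs in SW620, 394 in HCT116 and 1173 in LS513. By fold, the highest anchor in HCT116 over LS513 was chr8:126269998-126273606 (100 PETs in HCT116 and 16 in LS513, fold 10.0, interval 5.89 to 18.3) and the lowest chr8:110984864-110989140 (3 PETs in HCT116 and 47 in LS513, fold 0.103, interval 0.0204 to 0.319). Loops on 8q took 2.70% of autosomal loop PETs in HCT116 and 1.94% in LS513.

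By summed PETs SW620 and SW480 differed little on 8q. At shared anchors SW620 held 4796 PETs and SW480 1419, a fold of 0.878 (interval 0.828 to 0.933). The median anchor group stood at 0.772, past the call limit, and at 0.805 when centred on all autosomal groups. Of 60 groups with at least 20 PETs, 22 were more than 1.5-fold lower in SW620 and 11 higher, against 30.6% and 30% of all groups. Windows went both ways, from 0.496 at 110 to 115 Mb (103 PETs in SW620, 54 in SW480) to 1.76 at 145 to 150 Mb (583 PETs in SW620 and 86 in SW480). Set against HCT116, SW620 was lower on 8q, with 10336 PETs in SW620 against 16134 in HCT116 and a fold of 0.669 (0.652 to 0.686), and 12.8% of all arms were called lower in that pair. Of its 21 windows there, 16 were called lower, against 33.7% of all windows.

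Arm 20q was highest in the lines from the same patient. Its share was 3.52% in SW620 (interval 3.48 to 3.56), 3.82% in SW480 (3.72 to 3.93), 2.35% in HCT116 (2.32 to 2.39) and 2.21% in LS513 (2.19 to 2.24). SW620 and SW480 both lay above HCT116 and LS513. In relative density the gap was smaller, with 1.14 in SW620, 1.39 in SW480, 1.06 in HCT116 and 0.998 in LS513, where SW620 held 623 anchors on 20q over 4.84 Mb and HCT116 457 over 2.79 Mb. The SW480 density was 1.32 times the median of the other 3 lines, and 10.3% of all arms in SW480 were called higher by this measure. For SW620 this value was 1.08 and was not called. Over the 113 groups of 20q anchors held by all lines the relative density was 1.13 in SW620, 1.31 in SW480, 0.977 in HCT116 and 0.866 in LS513, which is the same order.

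At overlapping anchors SW620 exceeded HCT116 on 20q by 1.41-fold (23003 PETs in SW620 and 16990 in HCT116, interval 1.39 to 1.44) and LS513 by 1.51-fold (23003 PETs in SW620 and 26124 in LS513, 1.49 to 1.54). SW480 exceeded HCT116 by 1.58-fold (3932 PETs in SW480 and 9128 in HCT116, 1.52 to 1.64) and LS513 by 1.81-fold (3932 PETs in SW480 and 13181 in LS513, 1.74 to 1.87). These comparisons were added after the data were seen and share libraries. Per kb of the same anchors SW620 stood at 1.17 over HCT116 and 1.249 over LS513, where both calls ended, and SW480 at 1.37 and 1.57. Arms called higher were 23.1% of all arms for SW620 against HCT116, 23.1% for SW620 against LS513, 23.1% for SW480 against HCT116 and 17.9% for SW480 against LS513. By windows, 20q was called higher in 4 of 7 for SW620 over HCT116 and in all 7 for SW620 over LS513, where 20.7% and 21.9% of all windows were. For SW480 it was 6 of 7 over HCT116 and all 7 over LS513, where 37.9% and 37.2% of all windows were. Single anchors past 1.5-fold higher on 20q were 89 of 248 for SW620 over HCT116, where 21.1% of all anchor groups were, and 101 of 252 for SW620 over LS513, where 23.9% were. They were 42 of 102 for SW480 over HCT116, where 27.5% were, and 62 of 107 for SW480 over LS513, where 31.5% were. The loop share was also higher in SW620 and SW480, with 3.26% in SW620, 2.79% in SW480, 2.44% in HCT116 and 2.24% in LS513.

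Within each pair of lines 20q changed less. It held 15514 PETs in SW620 and 4232 in SW480 at shared anchors, a fold of 0.953 (interval 0.921 to 0.986). The window at 60 to 65 Mb stood at 1.4 (2977 PETs in SW620, 552 in SW480) and that at 50 to 55 Mb at 0.473 (1297 PETs in SW620 and 713 in SW480). In HCT116 over LS513 the fold was 1.06 (1.04 to 1.08), and 6 of 7 windows lay inside the call limits. The exception was 50 to 55 Mb at 1.36 (1110 PETs in HCT116 and 1310 in LS513). Over all windows of HCT116 over LS513, 23.3% were called higher and 19.8% lower. The anchor chr20:62255834-62261235 led the arm in SW620 with 1103 PETs, in HCT116 with 644 and in LS513 with 1260, while SW480 had none overlapping it. In SW480 the leader was chr20:30280663-30312887, with 302 PETs. Per 100000 autosomal PETs this place held 96.9 in SW620, 235 in SW480, 77.2 in HCT116 and 62.8 in LS513. By fold over LS513, the highest HCT116 anchor was chr20:49156217-49160596 (46 PETs in HCT116 and 10 in LS513, 7.40-fold, interval 3.68 to 16.4) and the lowest chr20:60978566-60990788 (28 PETs in HCT116 and 220 in LS513, 0.205, interval 0.133 to 0.304).

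**Figure D3:**
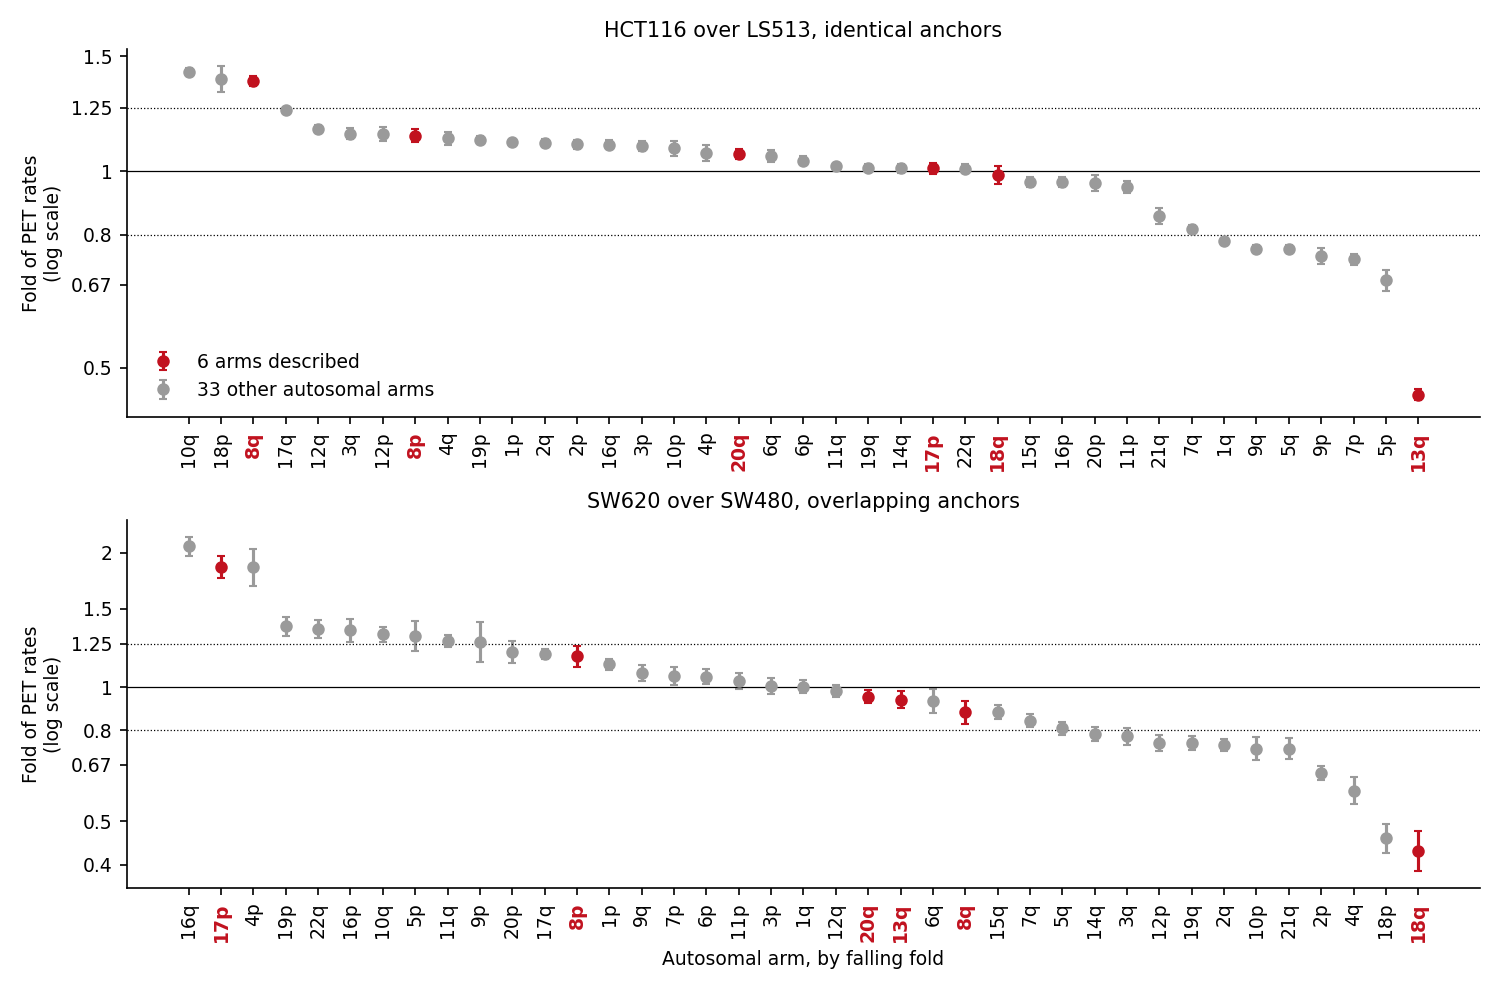
Fold of PET rates (log scale) in all 39 autosomal arms, by falling fold, for HCT116 over LS513 at identical anchors (top) and SW620 over SW480 at overlapping anchors (bottom). Red points are the 6 arms and grey points the 33 others, with 95% exact intervals, and dotted lines mark the call limits, 0.8 and 25% above 1. Arm 13q comes last in the upper panel at 0.455 and 18q last in the lower one at 0.429.

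Of the commonly lost arms, 18q was the sparsest in every line. Its share was 0.259% in SW620 (interval 0.248 to 0.270), 0.665% in SW480 (0.622 to 0.711), 0.732% in HCT116 (0.714 to 0.750) and 0.741% in LS513 (0.726 to 0.755). SW620 lay far below the other lines, and the intervals of HCT116 and LS513 overlapped. The relative density was 0.490 in SW620, 0.652 in SW480, 0.623 in HCT116 and 0.627 in LS513. That made 18q rank 39 of 39 arms in SW620, HCT116 and LS513 and rank 38 in SW480. The SW620 share was 0.354 times the median of the other 3 lines, and 15.4% of all arms were called lower by share in SW620. By density SW620 stood at 0.782 of the median of the other 3 lines, a call that 2.56% of all arms had. By the median density over anchors it stood at 0.870, and the call ended.

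SW620 also had few anchors on 18q. It held 188, covering 829 kb, whereas HCT116 held 283, covering 1.47 Mb. Of the HCT116 anchors on 18q, 42.0% overlapped an SW620 anchor, against 67.8% over all autosomes. At shared anchors SW620 held 973 PETs and SW480 589, a fold of 0.429 (interval 0.387 to 0.476), the lowest of the 39 arms. No other of the 6 arms was called lower in SW620 than in SW480, while 28.2% of all 39 arms were. Of 29 anchor groups with at least 20 PETs, 21 (72.4%) were more than 1.5-fold lower and 2 (6.90%) more than 1.5-fold higher, against 30.6% and 30% of 4325 autosomal groups. All 6 windows were called lower, from 0.236 at 65 to 70 Mb (110 PETs in SW620, 121 in SW480) to 0.683 at 15 to 20 Mb (71 PETs in SW620 and 27 in SW480), where 42.9% of all windows were lower. Per kb of the shared anchors the fold was 0.602, and per kb of each line's own anchors it was 0.752. At the 6 anchors of 18q with identical ends in both lines, SW620 held 116 PETs and SW480 48, a fold of 0.859 (0.609 to 1.23), and the call ended.

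SW620 was also low against the other lines. At overlapping 18q anchors it held 1613 PETs against 4006 in HCT116, a fold of 0.420 (interval 0.396 to 0.445), and 1613 against 6743 in LS513, a fold of 0.411 (0.389 to 0.434). Each was the lowest of the 39 arms. Past 1.5-fold lower were 56 of 74 anchor groups against HCT116, where 38.3% of all groups were, and 54 of 72 against LS513, where 32.8% were. Per kb of the same anchors the folds were 0.670 over HCT116 and 0.656 over LS513. All 12 windows were called lower than in HCT116 and 11 of 12 lower than in LS513, where 33.7% and 32.1% of all windows were. SW480 stood at 0.721 (0.645 to 0.805) of HCT116, with 387 PETs in SW480 and 1968 in HCT116, and at 0.778 (0.697 to 0.866) of LS513, with 377 PETs in SW480 and 2934 in LS513. Called lower by PETs were 20.5% of all arms in SW480 against HCT116 and 25.6% in SW480 against LS513. Per kb the 18q folds of SW480 were 0.895 and 1.01, so that both calls ended and the second direction turned. Its windows on 18q went both ways, with 4 of 11 called higher and 6 called lower than HCT116, where 37.9% and 33.8% of all windows were. Among loops SW620 was lowest too, with 0.225% of autosomal loop PETs on 18q in SW620, 0.629% in SW480, 0.394% in HCT116 and 0.463% in LS513.

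HCT116 and LS513 were close on 18q, with 6245 PETs in HCT116 and 10160 in LS513 at identical anchors and a fold of 0.988 (interval 0.957 to 1.02). More than 1.5-fold higher in HCT116 were 64 of 156 anchors (41%) and lower 24 (15.4%), near the 33.5% and 18.2% of all autosomal anchors. Its windows spread from 0.576 at 15 to 20 Mb (488 PETs in HCT116 and 1363 in LS513) to 2.43 at 65 to 70 Mb (89 PETs in HCT116 and 59 in LS513). The strongest LS513 anchor, chr18:19745263-19776446, held 184 PETs in HCT116 and 840 in LS513, against 23 in SW620 and no anchor in SW480. In HCT116 the leader was chr18:46446993-46483863 with 270 PETs, where LS513 held 400. SW620 and SW480 shared a leading anchor that neither other line had, at chr18:68038923-68053764 in SW620 with 103 PETs and chr18:68026024-68053764 in SW480 with 114. Per 100000 autosomal PETs this was 12.4 in SW620 and 88.6 in SW480. By fold, HCT116 was highest over LS513 at chr18:46507520-46510637 (47 PETs in HCT116 and 23 in LS513, 3.29-fold, interval 1.96 to 5.67) and lowest at chr18:47086232-47091104 (49 PETs in HCT116 and 409 in LS513, 0.193, interval 0.140 to 0.259).

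**Figure D4:**
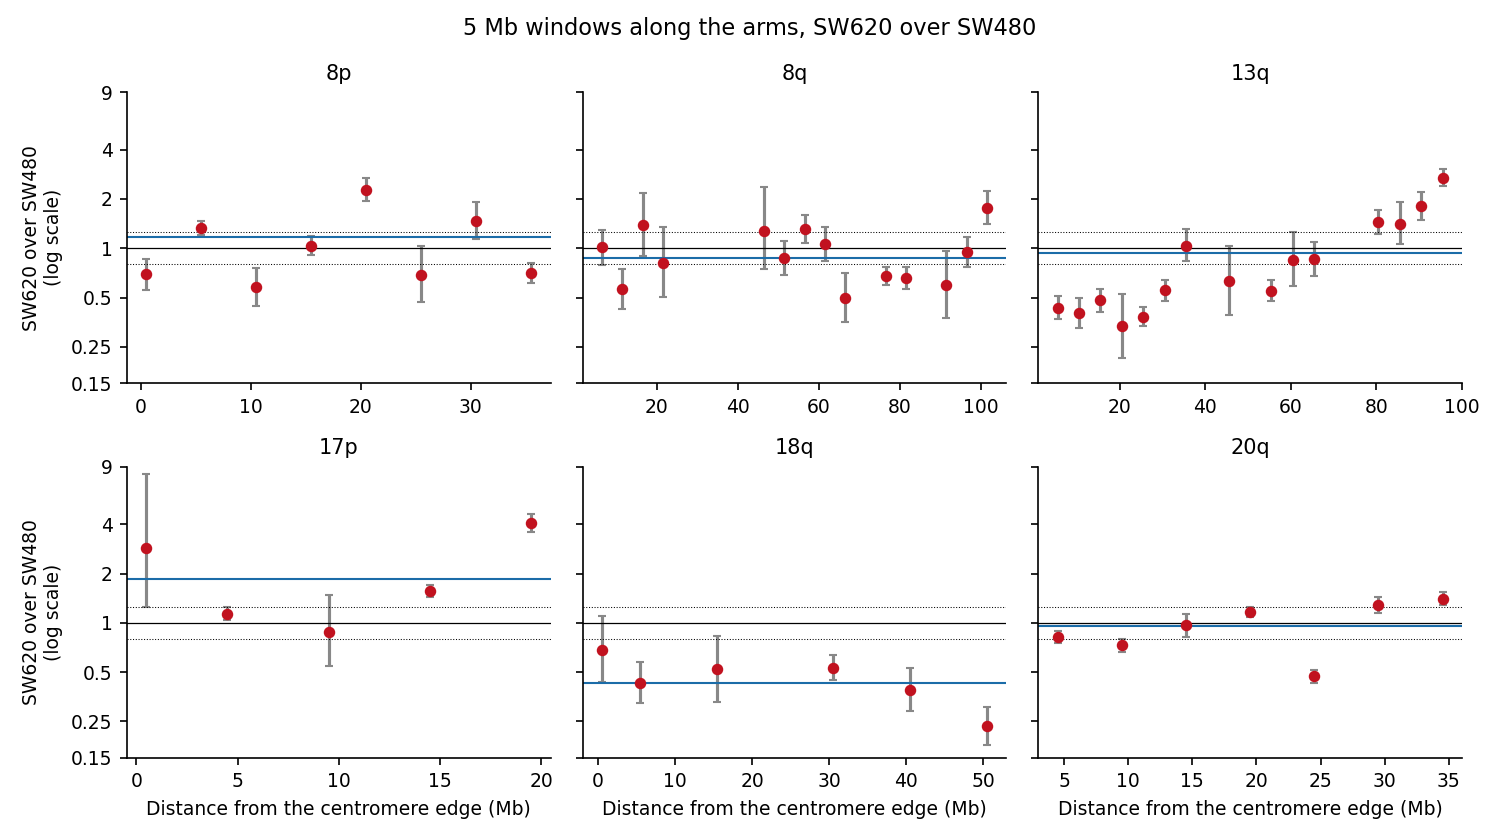
SW620 over SW480 fold of PET rates (log scale) in 5 Mb windows with at least 50 PETs at shared anchors, by distance in Mb from the centromeric edge of each arm. Error bars are 95% exact intervals, the blue line is the fold of the whole arm and dotted lines mark the call limits, 0.8 and 25% above 1. The 13q windows reach 2.71 near the telomere, and all 6 windows of 18q lie below 1.

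Arm 17p, though commonly lost in these cancers, was dense in all 4 lines. The relative density was 1.47 in SW620, 1.31 in SW480, 1.24 in HCT116 and 1.23 in LS513. Of the 39 arms it ranked 3rd in SW620, 4th in SW480, 4th in HCT116 and 7th in LS513. Shares set SW480 apart, with 2.46% in SW620 (interval 2.43 to 2.50), 1.27% in SW480 (1.21 to 1.34), 2.03% in HCT116 (2.0 to 2.06) and 2.01% in LS513 (1.99 to 2.04). SW480 had only 91 anchors on the arm and SW620 360. At shared anchors SW620 held 10268 PETs and SW480 1434, a fold of 1.86 (interval 1.76 to 1.97), rank 2 of 39. No other of the 6 arms was called higher in SW620, while 25.6% of all 39 arms were. Of 56 anchor groups, 29 (51.8%) were more than 1.5-fold higher in SW620 and 4 (7.14%) lower, against 30% and 30.6% of all groups.

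The highest 17p window in SW620 over SW480 lay at the telomeric end. At 0 to 5 Mb SW620 held 4097 PETs and SW480 261, a fold of 4.08 (interval 3.60 to 4.64), while at 10 to 15 Mb the fold was 0.881 (78 PETs in SW620 and 23 in SW480, 0.548 to 1.47). The centromeric window, 20 to 25 Mb, was also called higher at 2.86, on 66 PETs in SW620 and 6 in SW480 (1.246 to 8.07). The last 10 Mb stood at 2.32 and the rest at 1.15. As on 13q, the ends of autosomes as a group moved the same way, and the part of this in the 17p pattern was not tested. Among the 6 arms the ends of 8q (1.30) and 20q (1.36) also stood higher, while those of 8p (0.701) and 18q (0.240) stood below 1. Per kb of the shared anchors the 17p fold was 1.28, and the call held. Per kb of each line's own anchors it was 1.12 and at the 5 identical anchors 1.19, and the call ended under both. By loops, with 2.58% in SW620 and 0.856% in SW480, it was 3.01. Against HCT116, SW620 stood at 1.29 (17983 PETs in SW620 and 14550 in HCT116, interval 1.26 to 1.32) and SW480 at 0.697 (1383 PETs in SW480 and 7280 in HCT116, 0.657 to 0.738), with 23 of its 54 anchor groups past 1.5-fold lower, where 37.6% of all groups were. By PETs, 23.1% of all arms were called higher in SW620 against HCT116, and 20.5% lower in SW480 against HCT116. Per kb of the same anchors the 17p values were 1.20 for SW620 and 0.907 for SW480, and neither was called. HCT116 and LS513 differed little on 17p, with 17383 PETs in HCT116 and 27672 in LS513, a fold of 1.01 (0.991 to 1.03) and 4 of 5 windows inside the call limits. The exception was 10 to 15 Mb at 0.773 (312 PETs in HCT116 and 649 in LS513). Of all windows in that pair, 23.3% were called higher and 19.8% lower.

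Anchors on 17p were led by chr17:4375392-4427459 in LS513, with 1520 PETs in SW620 (over 2 anchors), 15 in SW480, 458 in HCT116 and 1717 in LS513. Per 100000 autosomal PETs these were 183 in SW620, 11.7 in SW480, 53.6 in HCT116 and 125 in LS513, with SW620 highest and SW480 lowest. The leader in both SW480 and HCT116 was chr17:7135920-7147811, with 1038 PETs in SW620, 180 in SW480, 550 in HCT116 and 1192 in LS513. That anchor was among the top 2 of the arm in every line. By fold, HCT116 was highest over LS513 at chr17:782181-787853 (53 PETs in HCT116 and 11 in LS513, 7.75-fold, interval 4.0 to 16.4) and lowest at chr17:16361395-16372328 (7 PETs in HCT116 and 48 in LS513, 0.234, interval 0.0895 to 0.521).

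Arm 8p varied least in share among the lines, with 1.31% in SW620 (interval 1.29 to 1.34), 1.33% in SW480 (1.27 to 1.4), 1.41% in HCT116 (1.39 to 1.44) and 1.246% in LS513 (1.23 to 1.26). SW480 overlapped both SW620 and HCT116. The relative density was 1.08 in SW620, 0.955 in SW480, 0.955 in HCT116 and 0.844 in LS513. HCT116 held 12070 PETs and LS513 17115 at identical anchors, a fold of 1.13 (1.11 to 1.16), and SW620 held 6867 and SW480 1523 at shared anchors, a fold of 1.17 (1.11 to 1.24). Neither was called. Inside the arm the windows were less even. In HCT116 over LS513, 6 of 9 were called higher, where 23.3% of all windows were, led by 0 to 5 Mb at 1.80 (113 PETs in HCT116 and 101 in LS513), and 1 was called lower, where 19.8% were, at 35 to 40 Mb with 0.772 (2430 PETs in HCT116 and 5058 in LS513). In SW620 over SW480, 3 of 8 were higher, led by 20 to 25 Mb at 2.27 (1558 PETs in SW620 and 178 in SW480), where 25.9% of all windows were, and 4 lower, down to 0.579 at 30 to 35 Mb (185 PETs in SW620 and 83 in SW480). The lower count is near the 42.9% of all windows called lower in that pair.

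The window at 35 to 40 Mb held the leading 8p anchor of 3 lines. It lay at chr8:37546329-37557240 in LS513, chr8:37547869-37557240 in SW620 and chr8:37552423-37556462 in SW480. There SW620 held 653 PETs, SW480 109, HCT116 312 and LS513 1085. Per 100000 autosomal PETs the values were 78.8 in SW620, 84.7 in SW480, 36.5 in HCT116 and 79.0 in LS513, so HCT116 was the low line. In HCT116 the leader was chr8:8140062-8158137, with 363 PETs in SW620, 86 in SW480, 461 in HCT116 and 347 in LS513. By fold, HCT116 was highest over LS513 at chr8:29367489-29370858 (63 PETs in HCT116 and 13 in LS513, 7.79-fold, interval 4.24 to 15.4) and lowest at chr8:16857286-16861103 (12 PETs in HCT116 and 66 in LS513, 0.292, interval 0.144 to 0.545).

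**Figure D5:**
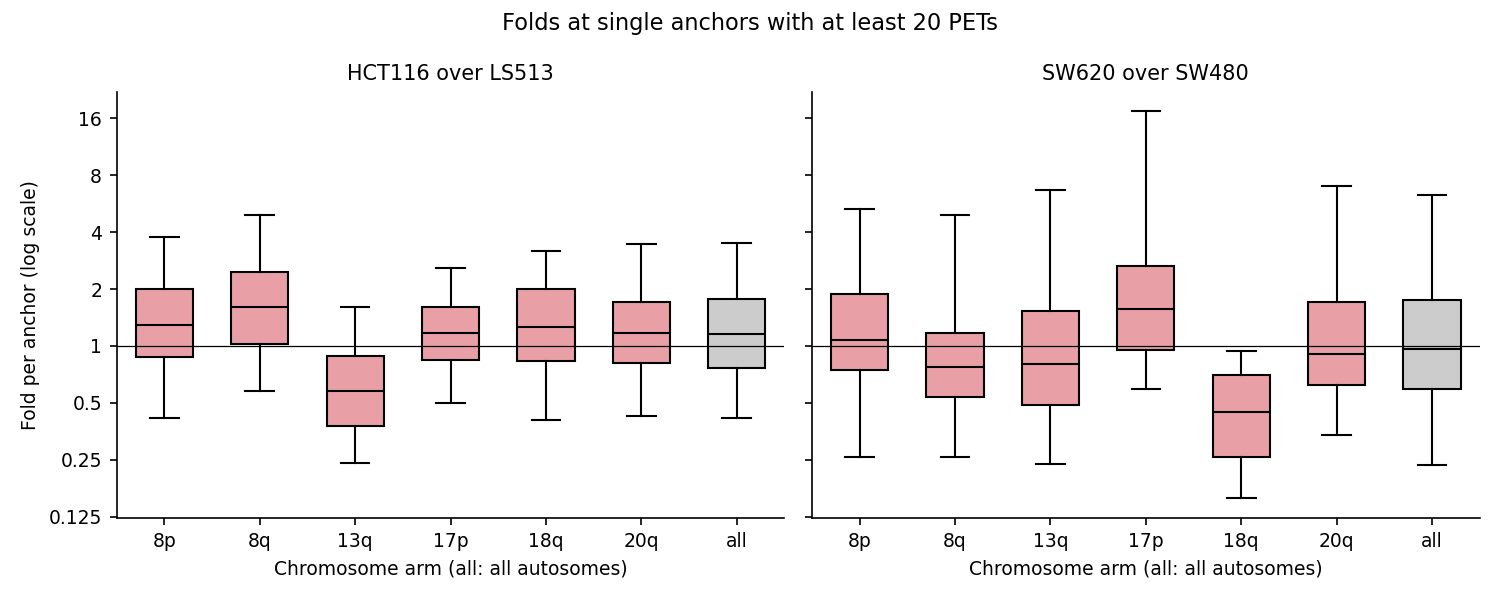
Fold per anchor (log scale) at anchors with at least 20 PETs over both lines, for HCT116 over LS513 (left) and SW620 over SW480 (right). Boxes span the middle quartiles with the median as a line, whiskers run from the 5th to the 95th percentile, and the grey box holds all autosomal anchors. The 13q median is 0.575 on the left, where the autosomal median is 1.15, and the 18q median is 0.447 on the right, where it is 0.959.

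PETs between chromosomes were set against the number that the totals of each arm predict, for pairs of arms with at least 20 PETs. Interchromosomal PETs numbered 56544 in SW620, 3988 in SW480, 30626 in HCT116 and 66641 in LS513. At the depth of SW480, a pair of anchors not listed there says little about its absence. In SW620, 8p and 13q were joined by 64 PETs, 2.25 times the expected number (exact Poisson interval 1.73 to 2.87), and 0.324% of 618 arm pairs in that line were more than 2-fold above. The same pair stood at 1.39 in HCT116 with 21 PETs and 1.36 in LS513 with 76. In SW480 it stood at 1.43 on only 4 PETs, under the minimum of 20. The 64 PETs were spread over 63 pairs of anchors. The join of 17p with 8p in SW620 was of another kind. Its 54 PETs, 1.54 times the expected number (1.16 to 2.01), included 26 between 1 pair of anchors, chr17:7158637-7175190 and chr8:30144170-30146296. No such pair was listed in SW480, HCT116 or LS513, and the next strongest 17p pair in SW620 had 4 PETs, while 98.9% of the arm's interchromosomal pairs there had a single PET. Arms 8p and 17q were joined by 159 PETs in SW620, 1.69 times the expected number (1.43 to 1.97). More than 1.5-fold above expectation were 2.43% of arm pairs in SW620.

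In HCT116, 8p and 20q were joined by 37 PETs, 1.81 times the expected number (interval 1.27 to 2.49), a level past 1.5-fold that 3.61% of 499 arm pairs reached. In SW620 that pair stood at 0.893 and in LS513 at 0.990. Arms 17p and 20p were joined by 24 PETs in HCT116, 1.97 times the expected number (1.26 to 2.93), and stood at 1.49 in LS513. In HCT116, 13q and 20p were joined by 22 PETs, 2.08 times the expected number (1.30 to 3.15), where 0.401% of arm pairs passed 2-fold. An 8p anchor of HCT116, chr8:12522115-12523982, shared 9 PETs with chr7:97556722-97558586, against 1 in LS513 and none listed in SW620 or SW480. An 8q anchor, chr8:126675278-126678782, shared 6 with chr22:43091528-43098409 and none were listed in the other lines. In SW620 an anchor of 20q, chr20:35397018-35407070, shared 9 PETs with chr3:138578826-138583861, also listed in no other line. In LS513, 18q and 10p were joined 2.14 times the predicted number (22 PETs, 1.34 to 3.24), where 0.464% of 647 arm pairs passed 2-fold, and 17p and 16p 1.63 times (1.35 to 1.94), where 1.85% passed 1.5-fold. In SW480 only 11 arm pairs had at least 20 PETs, and of these 20q with 5q stood at 2.06 (26 PETs, 1.35 to 3.02), 9.09% being past 2-fold. Expected numbers were 10.6 for 13q with 20p and 12.2 for 17p with 20p in HCT116. They were 10.3 for 18q with 10p in LS513 and 12.6 for 20q with 5q in SW480. Each was below the minimum of 20 PETs, so these pairs could be listed only when well above expectation. The single pairs of anchors named were picked as the strongest of each arm after the data were seen.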

How the data were processed

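H3K27ac HiChIP was measured in 4 cell lines, 1 library each, and each line forms its own group by the cell line named in its label. The authors deposited tables of PET counts, in whole numbers per pair of anchors, with 1 table for pairs within a chromosome (same-anchor pairs included), 1 filtered for span, and 1 for pairs between chromosomes. HiC-Pro and the hg19 build are named in the submitters' processing notes. The loop caller, the source of the anchors and any copy number correction were not given in the sources used. A further table of loop scores was not used here.

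Anchors were assigned to arms by midpoint, with autosomal same-anchor PETs as the total. HCT116 and LS513 were compared at identical anchors, SW620 and SW480 at groups of anchors overlapping by at least 1 bp that both lines held. Folds are ratios of rates with exact conditional (Clopper-Pearson) 95% intervals. Arms and windows count as higher over 25% above 1 and as lower under 0.8, and anchors with at least 20 PETs past 1.5-fold, after adding 0.5 to each count. Interchromosomal expectations came from arm totals without pairs inside a chromosome. No significance test was run, since no group had a replicate. Depth ran from 128642 to 1373945 autosomal same-anchor PETs.

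All 6 arms were named, with the highest and lowest window per pair of lines and arm. The anchor with most PETs was named per arm and line. Also named were the HCT116 over LS513 anchors with the highest and lowest fold among those with at least 50 PETs. Of the arm pairs with most PETs over expectation, some were named and others left out. The members and lists were chosen with earlier results of these data known. Starts are printed 1 higher than deposited, taking the tables as 0-based like other BEDPE files. The arm fold calculation was checked on simulated counts with known folds. Alternatives covered scaling, anchor sets, minimum PETs, folds, arm ends and thinning. The remaining pairs of lines, the centred medians, the last 10 Mb of arms and single interchromosomal pairs were added after the data were seen. Values were computed in Python 3.11.15 with pandas 2.3.3 and numpy 2.4.6, intervals with scipy 1.17.1, and plots with matplotlib 3.10.9.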

Additional observations from a re-analysis of the deposited data

How the results depend on the processing

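No paired analysis was possible because each line had 1 library. The lower level of 13q in HCT116 over LS513 kept its direction and its call under all 11 settings (0.394 to 0.575), and the higher level of 8q under 10 of 11 (1.19 to 1.61). In SW620 over SW480, 18q was called under 12 of 13 settings (0.358 to 0.859) and 17p under 11 of 13 (1.12 to 3.01). Of the 6 arms, 2 were called for HCT116 over LS513. That number was 1 when scaled by the median anchor, 4 by the median over anchors (8p and 18q joined) and 1 with a fold of 1.5. For SW620 over SW480, 2 were called, against 1 per kb of all own anchors, 4 without 5 Mb at both arm ends (8p and 13q joined) and 0 at identical anchors. Past 1.5-fold either way were 922 anchors of these arms in HCT116 over LS513 (56.2%, where 51.7% of all autosomal anchors were), against 593 with a minimum of 50 PETs and 562 with a fold of 2. In SW620 over SW480 they were 265 (62.1%, where 60.6% were), against 158, 174 and, with SW620 thinned to the depth of SW480, 164. Over all lines, 12 of 24 arm and line combinations were called against the median of the other 3 by share and 4 by density, or 50% and 16.7%, where 39.7% and 12.2% of the 156 combinations over all arms were. With chromosome X in the total, the 6 arms held 10.8% in SW620, 10.7% in HCT116 and 11.4% in LS513. The causes of these shifts were not tested. Depth limits SW480 most, with a median of 6 PETs per anchor against 24 in LS513.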
